A study of Mus musculus with 6 samples.

Results

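Lmx1b, Wt1, Tcf21, Foxc1 and Foxc2 are 5 transcription factor genes of the podocyte, and this account follows the chromatin recovered with Tug1 probes around them. A peak was counted for a gene when it overlapped the gene or the 50 kb on either side, on mouse build mm10. The rule gave 55 of the 130269 peaks in the 4 pulldown lists. These 55 peaks joined into 42 regions of the 113114 found genome-wide, a region being all peaks that share at least 1 bp. The assay was ChIRP-seq, in which biotinylated oligonucleotides that bind an RNA pull it out of crosslinked nuclear extract and the DNA that comes with it is sequenced. The 48 probes against the long noncoding RNA Tug1 formed 2 non-overlapping sets, called even and odd, and each set served in 2 pulldowns (n = 2 per set). All libraries came from 1 kind of cell, cultured mouse podocytes immortalised with a temperature-sensitive SV40 T antigen, grown at 33 degrees, kept at 37 degrees for 10 days to differentiate, and used at passages 10 to 12. The 2 input libraries entered through the authors' peak calling, input 1 for the pulldowns numbered 1 and input 2 for those numbered 2. A pulldown with probes against another RNA was not analysed here, nor was any expression, so neither recovery without Tug1 nor the podocyte identity of the cells could be checked. Nothing in the labels says that replicates were separate cultures, so their spread may be technical.

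Podocytes are the epithelial cells that wrap the glomerular capillaries and carry the slit diaphragm of the kidney filter. WT1, a zinc finger protein, is needed for the kidney to form and stays on in mature podocytes, and mutations in its gene cause glomerular disease. LMX1B, a LIM homeodomain protein, is the gene product affected in nail-patella syndrome, which can include kidney disease. TCF21 (Pod1) is a basic helix-loop-helix protein of kidney mesenchyme and podocytes. FOXC1 and FOXC2 are forkhead proteins encoded by closely related intronless genes, and both act in the developing kidney and its podocytes. Long noncoding RNAs such as Tug1 can stay near chromatin, and ChIRP-seq maps where.

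Lmx1b (gene ID 16917) lies at chr2:33560965-33641208 and spans 80.2 kb. Wt1 (gene ID 22431) lies on the same chromosome at chr2:105126529-105173614 and spans 47.1 kb. The other members are short genes: Tcf21 (gene ID 21412, 2.88 kb) at chr10:22817263-22820143, Foxc1 (gene ID 17300, 3.99 kb) at chr13:31806646-31810635 and Foxc2 (gene ID 14234, 2.73 kb) at chr8:121116171-121118895. Exons and introns were not used here, so a peak is placed in a gene or beside it, and the sides of a gene are called the low-coordinate and the high-coordinate side.

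For Lmx1b, Tcf21 and Foxc1 the RefSeq promoter table (build GRCm38.p6) gave a start site. It gave none for Wt1 and Foxc2, so the bases before their starts were not examined. An even replicate 1 peak lay 198 bp from the low-coordinate end of Wt1, and an odd replicate 1 peak spans the same end of Foxc2. For the genes with a start site, the 250 bases before each start are shown. No pulldown had a peak in them. They are written 5′ to 3′ on the strand of the gene, with every CG dinucleotide in capitals.
Lmx1b, minus strand, chr2:33641099-33641348: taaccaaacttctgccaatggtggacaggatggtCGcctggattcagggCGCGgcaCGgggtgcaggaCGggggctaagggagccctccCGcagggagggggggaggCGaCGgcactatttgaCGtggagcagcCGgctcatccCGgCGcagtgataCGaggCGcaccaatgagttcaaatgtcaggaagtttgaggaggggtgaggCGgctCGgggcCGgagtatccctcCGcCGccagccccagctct
Tcf21, minus strand, chr10:22820144-22820393: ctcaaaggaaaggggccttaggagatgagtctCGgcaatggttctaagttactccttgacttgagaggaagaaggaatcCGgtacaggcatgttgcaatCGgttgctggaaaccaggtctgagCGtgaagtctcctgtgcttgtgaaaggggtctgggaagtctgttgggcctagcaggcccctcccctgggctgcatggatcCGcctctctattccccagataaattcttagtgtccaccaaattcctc
Foxc1, plus strand, chr13:31806396-31806645: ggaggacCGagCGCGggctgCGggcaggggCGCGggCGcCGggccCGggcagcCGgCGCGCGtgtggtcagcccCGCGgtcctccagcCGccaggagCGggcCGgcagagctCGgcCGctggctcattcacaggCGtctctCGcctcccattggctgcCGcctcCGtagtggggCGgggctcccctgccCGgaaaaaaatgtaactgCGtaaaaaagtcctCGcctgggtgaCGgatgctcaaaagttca

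The Lmx1b window held 19 CG, the Tcf21 window 5 and the Foxc1 window 29, against a median of 6 over 32851 such windows. As many CG as in the Foxc1 window were found in 6.78% of all windows, and as many as in the Lmx1b window in 19.7%. GC content was 65.2% (Lmx1b), 52.4% (Tcf21) and 70.8% (Foxc1). Core letters recognised by proteins of the members' own families were looked for on both strands: GTAAACA (forkhead), CAGCTG (an E-box), TAATTA (homeodomain) and GCGTGGG (WT1 and EGR factors). No match to any of the 4 was found in the 3 windows. They occur in 3.17%, 13%, 4.84% and 4.3% of all such windows. The peak nearest to the Lmx1b window was 8.91 kb away and came from even replicate 1. The nearest to the Foxc1 window was 12.4 kb away (odd replicate 2) and the nearest to the Tcf21 window 37.2 kb away (even replicate 1). Windows before a start site rarely held a peak in these lists: 1.67% and 0.95% of them did in even replicates 1 and 2, and 1.02% and 1.35% in odd replicates 1 and 2.

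Lmx1b had the most peaks of the members, 19 in all. They numbered 6 in even replicate 1, 5 in even replicate 2, 6 in odd replicate 1 and 2 in odd replicate 2. Foxc2 followed with 12 (2, 4, 2 and 4 in the same order of libraries), Wt1 with 11 (6, 0, 3 and 2), Foxc1 with 9 (3, 2, 2 and 2) and Tcf21 with 4 (2, 1, 1 and 0). The median protein-coding gene of 10 to 100 kb had 8 peaks in a window built the same way (quartiles 5 and 11), and 3.13% of the 11533 genes of that span had as many as Lmx1b. As many as Wt1 were found at 26.9% of them. These shares were not adjusted for window length within the class, and Lmx1b had the longest window of the members, 180 kb. The median gene under 10 kb had 6 peaks (quartiles 3 and 9). Of the 7925 genes of that span, 10.6% had as many as Foxc2, 25.8% as many as Foxc1 and 72.7% as many as Tcf21. Only 16 of the 55 peaks overlapped a member, 9 of them in Lmx1b, 4 in Foxc2 and 3 in Wt1, and none in Tcf21 or Foxc1. Another 19 overlapped a different annotated gene.

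**Figure D1:**
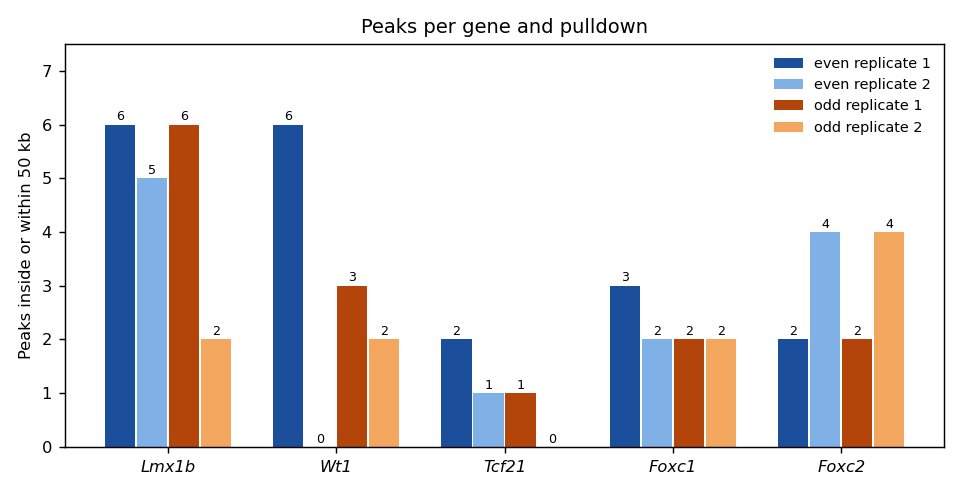
Number of peaks (vertical axis) inside or within 50 kb of each gene, 1 bar per pulldown, with the count above each bar. Lmx1b had 5 or 6 peaks in 3 pulldowns and 2 in odd replicate 2; Wt1 had 6 in even replicate 1 and 0 in even replicate 2.

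Summed over the 5 windows, even replicates 1 and 2 gave 19 and 12 peaks and odd replicates 1 and 2 gave 14 and 10. The means were 15.5 ± 4.95 (SD, n = 2) with even and 12 ± 2.83 (SD, n = 2) with odd probes, and the sets overlapped. The exact two-sided permutation p was 0.667, and 2 against 2 libraries cannot give less than 0.333. Within a number, the even pulldown gave 5 more peaks than the odd one in replicate 1 and 2 more in replicate 2. The windows add up to 637 kb, so the density was 29.8 and 18.8 peaks per Mb in even replicates 1 and 2 and 22.0 and 15.7 in odd replicates 1 and 2. The same lists held 15.3, 9.97, 10.5 and 13.1 peaks per Mb over the genome, where the length of a chromosome was taken as the stretch its peaks cover from end to end. Read depth is unknown from peak lists, and a deeper library can yield more peaks.

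Of the 42 regions, 7 (16.7%) held peaks of both probe sets, compared with 7979 (7.05%) of the regions genome-wide. All 5 genes had a region with peaks of at least 1 even and 1 odd library, which is the case for 38.6% of the 21887 protein-coding genes. The share was 39.1% among genes of 10 to 100 kb, the class of Lmx1b and Wt1, and 31.2% among genes under 10 kb, the class of Tcf21, Foxc1 and Foxc2. A region of at least 3 libraries lay near 3 of the 5 genes (Lmx1b, Foxc1 and Foxc2), against 17.3% of all genes and 14.2% of those under 10 kb. A region of all 4 libraries lay near Lmx1b alone, against 4.17% of all genes. The genes were proposed with earlier results of these lists known, so these shares give a background and no test. The count of 5 rested on single libraries and on the width of the window. Without even replicate 1 it was 2 (Lmx1b and Tcf21; 13.7% of all genes), without odd replicate 1 it was 3 (Lmx1b, Foxc1 and Foxc2; 28.4%), and within 20 kb it was 3 (Lmx1b, Wt1 and Foxc2; 24.8%). The pulldowns called against input 1 shared a region at 4 of the genes, all but Tcf21, against 23.8% of all genes. Those called against input 2 shared one at Lmx1b only, against 9.24%.

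**Figure D2:**
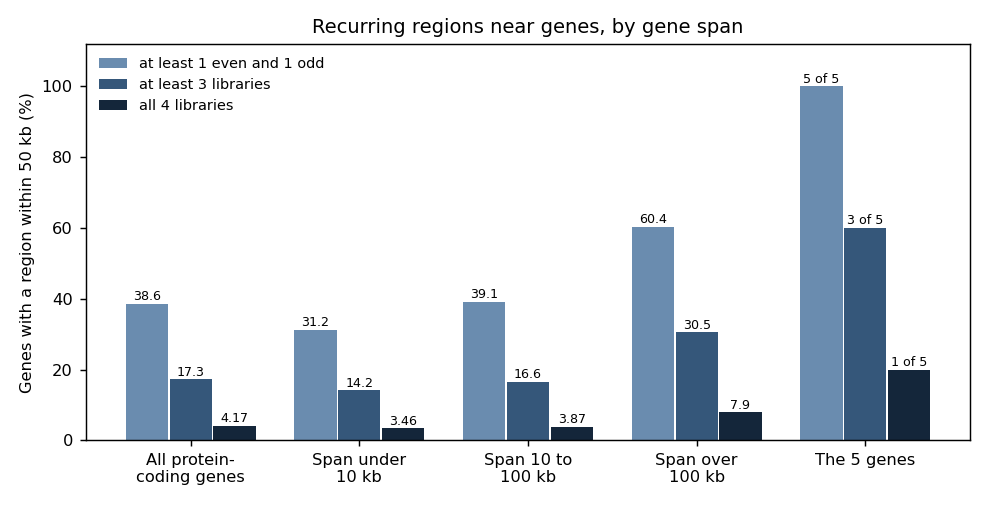
Percent of genes (vertical axis) with a region inside or within 50 kb that holds peaks of at least 1 even and 1 odd library, of at least 3 libraries or of all 4, for all protein-coding genes, for 3 classes of gene span and for the 5 genes, whose counts stand above the bars. The shares rise with span, from 31.2% under 10 kb to 60.4% over 100 kb for the even-odd rule.

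**Figure D3:**
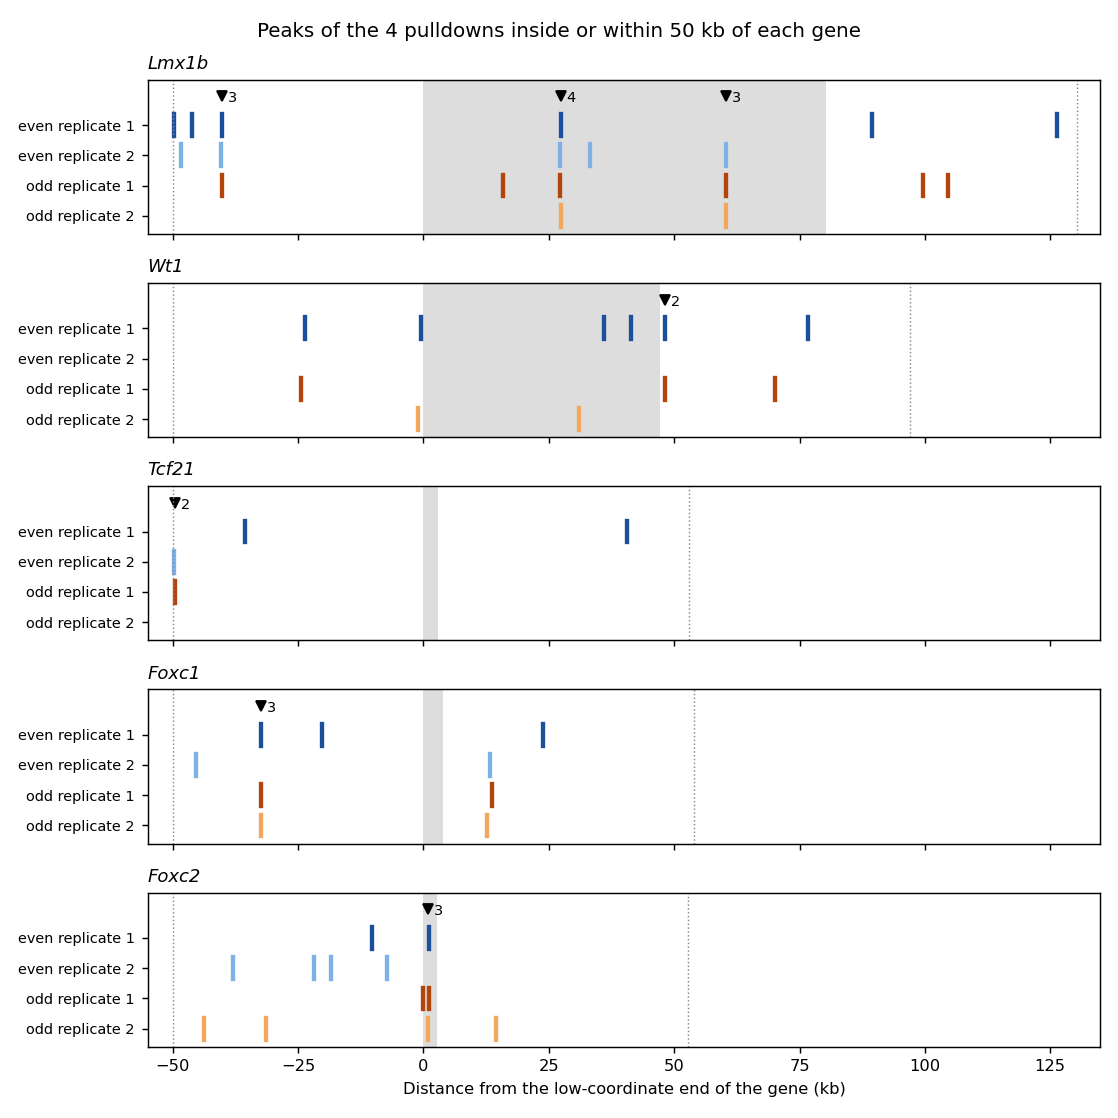
Peaks of each pulldown (coloured ticks, 1 row per library) by distance in kb from the low-coordinate end of each gene. Grey marks the gene, dotted lines the limits at 50 kb, and triangles the regions of several libraries with the number of libraries beside them; the region of all 4 lies inside Lmx1b, and that of Tcf21 lies at the edge of its window.

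Lmx1b, the homeodomain gene, carried the densest set of shared regions. One region inside it, chr2:33588089-33588557, had a peak in every pulldown. Regions of all 4 libraries occur inside 0.997% of genes of 10 to 100 kb, and within 50 kb of 3.87%. Neither share was adjusted for span within the class. The region lay 27.1 kb from the low-coordinate end of the gene and 52.5 kb downstream of the start site. Its score was 3100 in even replicate 1 and 192 in even replicate 2, and 3100 in odd replicate 1 and 269 in odd replicate 2. The score is the authors' peak caller's and was read only within a list. In the replicate 1 lists, 31995 of 40725 even peaks and 28026 of 28047 odd peaks share the value 3100, so there it ranks almost nothing. In the replicate 2 lists it varies, and the region stood at the 24.5 percentile of the even and the 63.3 percentile of the odd list, so it was below the median peak of one list and above that of the other. The starts of the 4 peaks spread over 148 bp and their ends over 66 bp, the peak of odd replicate 2 starting last, and all 4 shared 255 bp.

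A further region inside Lmx1b, chr2:33621075-33621568, had peaks of even replicate 2 and of both odd pulldowns, and none of even replicate 1. It lay 19.5 kb downstream of the start site. The score was 188 in even replicate 2 (23.4 percentile), 3100 in odd replicate 1 and 428 in odd replicate 2 (87.0 percentile). Its peaks shared 324 bp. Its rank was thus high in the odd and low in the even list of that number. The third shared region, chr2:33520520-33520992, lay outside the gene in the lncRNA gene Gm33642, 40.0 kb from the low-coordinate end of Lmx1b, beyond its transcribed part. Peaks of both even pulldowns (scores 3099.76 in replicate 1, just under the common value, and 283 in replicate 2, the 54.8 percentile) and of odd replicate 1 (3100) made it up, and they shared just 23 bp. With 3 regions of at least 3 libraries, Lmx1b was among 0.356% of genes of its span class, a share not adjusted for window length. The other 9 regions of the window came from 1 library each. One of them, an even replicate 1 peak in Gm33642, scored 3214, at the 99.7 percentile of that list. The nearest peak upstream of Lmx1b, from even replicate 1, lay 9.16 kb from the start site and beyond the divergent lncRNA gene C130021I20Rik, which overlaps the high-coordinate end of the annotated Lmx1b gene and held no peak.

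Wt1, the zinc finger gene, was recovered unevenly. Even replicate 1 gave 6 peaks, odd replicate 1 gave 3, odd replicate 2 gave 2 and even replicate 2 gave 0. The nearest peak of even replicate 2 was 210.8 kb from the gene, and 97.4% of genes had a peak of that library as near or nearer. In comparison, 24.4% of genes of this span class had no peak of that library in their window. The 1 shared region, chr2:105174531-105174887, lay 917 bp beyond the high-coordinate end of Wt1. It had peaks of even and odd replicate 1, both with the common score of 3100, both called against input 1, starting within 15 bp of each other and sharing 275 bp. Neither replicate 2 pulldown had a peak there.

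At the low-coordinate end of Wt1 lies Wt1os, a lncRNA gene on the minus strand, opposite to Wt1. Its annotated start is 18 bp from Wt1. With Wt1 read in the other direction, this end is the side of its start, though no start site of Wt1 was used. An even replicate 1 peak, chr2:105125892-105126331 (score 3100), lay 198 bp from Wt1 and 179 bp from the start site of Wt1os, inside that gene. An odd replicate 2 peak, chr2:105125274-105125621, lay 908 bp from Wt1. The peaks were 270 bp apart, so each probe set had a peak within 1 kb of that end of Wt1, but not at the same place. The odd peak scored 107 (6.66 percentile). Another such pair lay farther into Wt1os, where peaks of odd and even replicate 1 were 534 bp apart and 24.3 and 23.5 kb from Wt1. Inside Wt1 there were 2 peaks of even replicate 1 and 1 of odd replicate 2 (score 92.5, 4.42 percentile), in 3 different places. Both peaks of odd replicate 2 near Wt1 were thus among the lowest-scoring of that list.

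Tcf21, the helix-loop-helix gene, had the fewest peaks and none close to it. Its window held 2 peaks of even replicate 1, at 35.4 and 37.5 kb on either side, and 1 each of even replicate 2 and odd replicate 1. Odd replicate 2 had none, as at 24.6% of genes under 10 kb, and its nearest peak lay 59.4 kb away. The peaks of even replicate 2 (score 185, 22.5 percentile) and odd replicate 1 (3100) overlapped by 333 bp in a region at chr10:22767348-22767939. That region lay 49.3 kb from Tcf21 on the side of its transcript end and outside any annotated gene, close to the limit of the window. The gene Gm10824, a lncRNA that overlaps Tcf21, had no peak. In every library at least 73.5% of protein-coding genes had a peak as near as Tcf21 or nearer.

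Foxc1 also had no peak inside it, but a region upstream whose peaks had nearly the same edges in 3 pulldowns. The region chr13:31774040-31774383 held peaks of even replicate 1 and of both odd pulldowns, 32.3 kb upstream of the start site and outside annotated genes. The 3 peaks began within 17 bp and ended within 12 bp of each other. Genome-wide, starts spread over a median of 115 bp (quartiles 43 and 215) and ends over 118 bp (quartiles 40 and 218.5) in the 2963 regions of at least 3 libraries with 1 peak of each. Starts lay within 17 bp of each other in 10.6% of these regions. In 3.51% both edges lay within 20 bp, a limit just above the spreads seen here. The score was 3100 in both replicate 1 lists and 464 in odd replicate 2, the 89.7 percentile and the highest rank of any replicate 2 peak near the 5 genes. Even replicate 2 had no peak there, and its nearest lay 12.6 kb away, at a score of 420 (79.7 percentile).

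**Figure D4:**
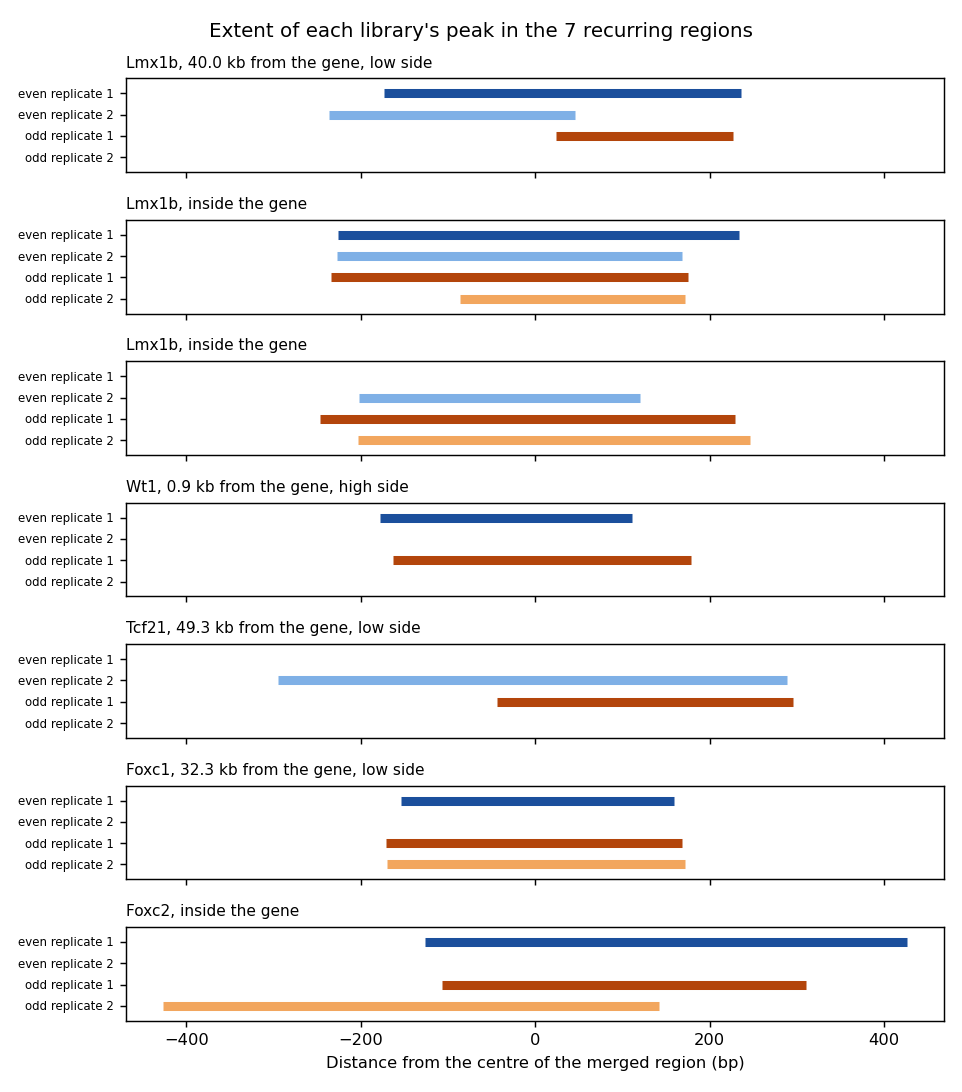
Extent of each library's peak (bars, 1 row per library) in the 7 regions of several libraries, by distance in bp from the centre of the region. The 3 bars upstream of Foxc1 nearly coincide, while those at 40.0 kb from Lmx1b share 23 bp and those in Foxc2 are staggered.

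On the other side of Foxc1, 3 pulldowns had a peak around the low-coordinate end of Gmds, which codes for an enzyme of GDP-fucose synthesis and is read toward Foxc1. The peaks, of odd replicate 2 (8.38 kb from Foxc1, score 257, 60.5 percentile), even replicate 2 (9.04 kb, score 250, 45.7 percentile) and odd replicate 1 (9.66 kb, score 3100), lay 136 and 242 bp apart and did not overlap. They therefore count as 3 regions of 1 library each. The start site of Gmds is far away, outside the window. Even replicate 1 had peaks 19972 bp away on the low-coordinate side and 19593 bp away on the high-coordinate side.

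Foxc2, the paralogue of Foxc1, had its shared region inside the gene. The region chr8:121116724-121117577 held peaks of even replicate 1 and both odd pulldowns, 553 bp from the low-coordinate and 1318 bp from the high-coordinate end. A region of at least 3 libraries inside the gene is found for 1.26% of genes under 10 kb. The peaks of even and odd replicate 1 had the common score of 3100. The peak of odd replicate 2 scored 50.7, the 11th lowest of 34968 peaks (0.0315 percentile), close to the lowest score in the list, 50.1. It was also shifted: starts spread over 320 bp and ends over 285 bp, and the 3 peaks shared 249 bp. Odd replicate 1 had another peak that spans the low-coordinate end of the gene, 497 bp from the region. Even replicate 2 had no peak in Foxc2, and its nearest was 7.07 kb away.

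Foxc2 lies on a chromosome with many peaks in all 4 lists. Chromosome 8 held 1.60 and 1.97 times as many peaks per Mb as the median autosome in even replicates 1 and 2 and 1.52 and 1.95 times in odd replicates 1 and 2. The ratio for the chromosomes of the other members was between 0.91 and 1.02. Among the 343 genes under 10 kb on chromosome 8, 46.4% had an even-odd region within 50 kb, 24.5% a region of at least 3 libraries within 50 kb and 2.33% one inside the gene. What part the chromosome plays in the counts at Foxc2 was not tested. Its window is also crowded with genes. Single-library peaks lay in the lncRNA gene Fendrr (1 each of even and odd replicate 2), in the forkhead genes Foxf1 and Foxl1 (1 each of odd replicate 2) and in Mthfsd (1 of even replicate 1 and 2 of even replicate 2). The replicate 2 peaks in these genes ranked low, from the 1.26 percentile (a Mthfsd peak, score 80.2) to the 24.0 percentile (the Foxl1 peak, score 156).

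Over the 5 genes, 15 of the 22 replicate 2 peaks scored below the median of their list. Median percentiles were 23.9 in even replicate 2 (12 peaks, from 1.26 to 79.7) and 15.4 in odd replicate 2 (10 peaks, from 0.0315 to 89.7). The forkhead genes differed in these ranks, which were not compared by a test. The Foxc1 peaks had median percentiles of 62.7 and 75.1 in even and odd replicate 2, and the Foxc2 peaks 9.45 and 6.30. In odd replicate 2, both Lmx1b peaks ranked above the list median, while both Wt1 peaks stood at the 6.66 percentile or lower. The 8 replicate 2 peaks in regions of several libraries had a median percentile of 39.6 and the 14 others 14.3, with overlapping ranges. In even replicate 1, 14 of the 19 peaks and in odd replicate 1 all 14 had the common score of 3100.

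**Figure D5:**
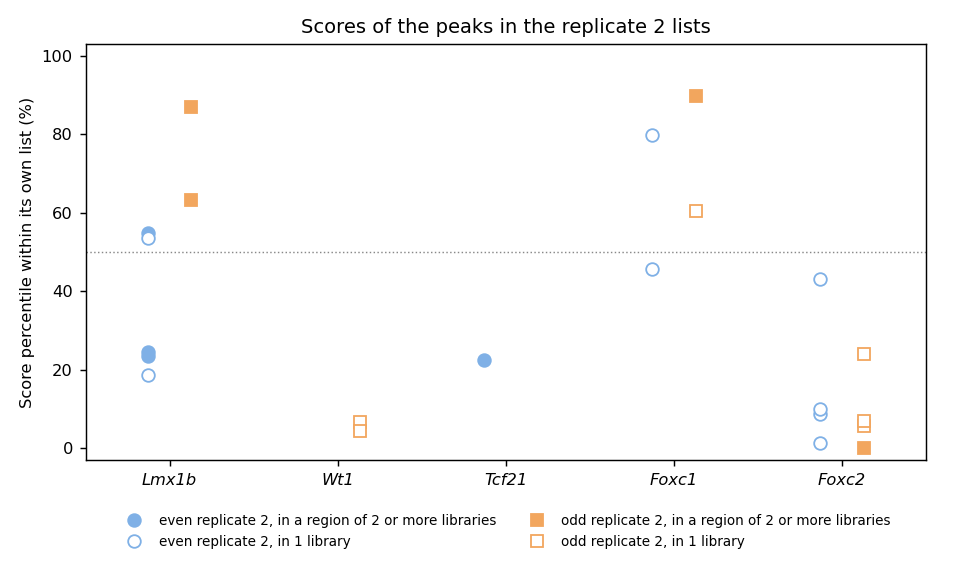
Percentile of each peak's score within its own list (vertical axis, %) for the replicate 2 pulldowns, by gene; filled symbols are peaks in a region of several libraries, and the dotted line marks the list median. The 8 peaks near Foxc2 all lie under the line, and 3 of the 4 near Foxc1 lie above it.

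Genes that work with these factors were then counted by the same rule, from lists chosen with earlier results of these data known. Of 32 partners and upstream regulators, 17 (53.1%) had an even-odd region, against 38.6% of all protein-coding genes, and 3 had a region of all 4 libraries, against 4.17%. Among these were Ldb2, which codes for a cofactor of LIM homeodomain proteins (inside the gene, 95.0 and 61.7 percentiles in even and odd replicate 2), and Tcf4, which codes for an E protein that can pair with factors such as TCF21 (9.69 kb away, 73.3 and 96.4 percentiles). Regions of 3 libraries lay inside Zhx2, Tead1, Klf6 and Wwtr1, of which Tead1 and Wwtr1 code for Hippo pathway factors, and near the other E protein genes Tcf12 (1.64 kb) and Tcf3 (30.2 kb), each without even replicate 2. In this list 10 genes span over 100 kb, the class in which 60.4% of genes had an even-odd region and 7.9% one of all 4 libraries, and the median span was 38.3 kb against 17.2 kb for all protein-coding genes. The Lmx1b cofactor gene Ldb1 had a region of even replicate 1 and odd replicate 2, and the WT1 cofactor gene Basp1 likewise.

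Of 21 paralogues, short genes with a median span of 5.59 kb, 4 (19%) had an even-odd region, against 31.2% of genes under 10 kb and 38.6% of all genes. Msc, which codes for a relative of TCF21, had a region of all 4 libraries 23.9 kb away (92.3 and 96.8 percentiles in even and odd replicate 2). Foxl1 counted through the Foxc2 region, which lies 10.1 kb from it, and Foxf1 through the Foxc2 region and a region of its own on the far side. Foxo3 had a region of 3 libraries inside it. Lmx1a, the paralogue of Lmx1b, and the genes Egr1 to Egr4, relatives of Wt1, had none, nor did Foxf2 and Foxq1, the neighbours of Foxc1.

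A list of possible targets of these factors held 30 podocyte genes, and their control by the factors was not tested here. Of the 30, 16 (53.3%) had an even-odd region, against 38.6% of all genes. A region of all 4 libraries was found for 6, against 4.17%. Among these were Sulf1, Pla2r1, Magi2, Thsd7a and Col4a3, and Col4a3 held it inside the gene. Of the 30, 13 span over 100 kb, where the shares were 60.4% and 7.9%. Further genes with a region of 3 libraries were Arhgap24, Synpo and Itgb1, and Plce1, Myo1e and Tjp1 had regions of 2. Nphs1, which codes for nephrin, had a region of even replicate 1 and odd replicate 2 at 5.87 kb, and Podxl and Vegfa had none. Per gene, the median number of peaks was 11 for the 5 members, 9.5 for the partners and 6 for the paralogues. It was 11.5 for the possible targets and 7 for all protein-coding genes. These medians were not adjusted for span. The median spans were 3.99, 38.3, 5.59, 68.8 and 17.2 kb in the same order.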

How the data were processed

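ChIRP-seq DNA of 4 pulldown libraries was used through 1 deposited peak list each. The submitters' processing notes name Bowtie2 2.1.0 and build mm10. Per the file names, the authors called each list against 1 input library, without pooling. Peak names start with MACS; no source used here gives its version, its threshold or what was done with duplicates. Each deposited peak carries a score from the authors, whose scale no file states. The deposited coordinates were turned to 1-based positions.

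Genes (21887 protein-coding) and start sites came from RefSeq tables of GRCm38.p6, the build that mm10 names. Peaks sharing at least 1 bp were merged across lists over the whole genome. A percentile is the share of a list's peaks with a score at or below the given one. Even and odd counts were compared by an exact permutation test. The members and gene lists were chosen with earlier results of these data known. Named from the lists were genes with a region of all 4 libraries, then up to 6 with an even-odd region, ordered by number of libraries and lowest percentile, except that some list members are not reported here by name; Ldb1, Basp1, Nphs1 and the genes named as having none were picked after their values were seen. The merging was tested on simulated data. Since the lists give no reads, depth remains unknown and intervals for counting error could not be had. Alternatives were other windows, a 50% reciprocal overlap, higher-scoring peaks, each library left out and, added after seeing the data, the pulldowns of each input alone. Scripts ran in Python 3.11.15 with numpy 2.4.6, pandas 2.3.3 and, for plots, matplotlib 3.10.9.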

Additional observations from a re-analysis of the deposited data

How the results depend on the processing

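The 55 peaks became 20, 25, 31 and 84 with windows of 5, 10, 20 and 100 kb and 36 with peaks at or above the median score of their list. The count of 5 genes with an even-odd region was 3 with windows of 5, 10 and 20 kb, ran from 2 to 5 with each library left out in turn, and was 4 with the pulldowns numbered 1 alone and 1 with those numbered 2 alone. The pulldowns numbered 2 shared 2 regions, where all libraries gave 7 regions of several. Lmx1b had a region of all 4 libraries in every window, but no gene did (0) with peaks at or above the median score, and 1 to 3 genes had a region of all that were left without 1 library. The even minus odd difference of 3.5 peaks turned to -1 and -0.5 with windows of 5 and 10 kb, was 0.5 with one of 20 kb, was 0 with peaks at or above the median score and from 0 to 7 without 1 library. Paired by number as a replicate block, it was 3.5 (exact sign-flip p = 0.5, the smallest possible). In no setting could its p reach 0.05. The median of the 4 libraries' median percentiles fell from 61.0 to 37.0 when ties took their middle rank. The fall came through the medians of the replicate 1 lists (98.1 to 58.8 with even and 100 to 50.04 with odd probes). The cause of the other changes was not tested.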
